A study of Mus musculus with 2 samples.

Results

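The genes *Sox9*, *Sox8*, *Dmrt1*, *Wt1*, *Lhx9*, *Emx2* and *Cbx2* encode factors that build the gonad or set the fate of Sertoli cells. They were taken by symbol and are 7 of the 32285 gene rows of the table. Their RNA and the open chromatin at their starts were followed in nuclei of whole testes from mouse embryos at stage E14.5. All embryos carried *Nr5a1-cre*, a transgene that expresses a recombinase under *Nr5a1* regulatory sequence in somatic cells of the gonad, and a *Rosa-tdTomato* reporter, with no second genotype or treatment to compare. The 10x multiome assay read both measurements from the same nuclei, giving 1 RNA library and 1 ATAC library, and the sources used here do not give the number of pooled embryos. No replicate stands behind any value, so no test between animals was possible, and every 95% interval below covers counting error only.

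In the mouse, SRY acts briefly in supporting cell precursors and switches on *Sox9*, which drives Sertoli differentiation together with its relative *Sox8*, while *Dmrt1* later holds the male identity of Sertoli cells and also acts in germ cells. *Wt1*, *Lhx9* and *Emx2* are needed earlier, when the genital ridge grows from the coelomic epithelium, and *Wt1* remains in use in Sertoli cells. *Cbx2* encodes a chromodomain protein of Polycomb complex PRC1 whose loss in mice leads to gonads that fail to follow the male path.

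The stretches of DNA on which the accessibility results below turn are shown first, taken from the GRCm38.p6 genome. A RefSeq promoter window was matched for 3 of the 7 genes, and the window of *Emx2* lies in its own exon and is not printed. The *Sox8* window holds the 250 bases before the RefSeq start (chr17:25570687-25570936, minus strand) and lies wholly under the promoter peak, where exons of the gene 2810468N07Rik are also annotated. The *Lhx9* window (chr1:138842458-138842694, minus strand, 237 bases) lies inside the span of longer *Lhx9* transcripts and under a peak that was lower in Sertoli-like than in progenitor-like nuclei. The other 3 are the middle 300 bases of peaks that passed the 3-fold rule given below: one before *Sox9* in the span of a transcript of BC006965 (chr11:112772990-112773289, plus strand), one in an intron of *Dmrt1* (chr19:25537165-25537464, plus strand) and one in an intron of *Wt1* (chr2:105134315-105134614, plus strand). Capitals mark matches, on either strand, to the letters searched.
Sox8 promoter: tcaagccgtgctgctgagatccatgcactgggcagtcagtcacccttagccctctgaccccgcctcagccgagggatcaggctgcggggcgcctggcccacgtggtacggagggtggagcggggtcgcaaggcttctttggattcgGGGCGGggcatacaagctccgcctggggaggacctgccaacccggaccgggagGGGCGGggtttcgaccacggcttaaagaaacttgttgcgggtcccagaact
Lhx9 promoter: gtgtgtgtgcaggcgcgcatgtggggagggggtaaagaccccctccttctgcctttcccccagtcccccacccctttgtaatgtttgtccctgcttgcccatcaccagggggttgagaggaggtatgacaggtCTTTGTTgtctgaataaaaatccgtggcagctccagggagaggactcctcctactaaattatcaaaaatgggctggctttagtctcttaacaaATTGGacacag
Sox9 upstream peak: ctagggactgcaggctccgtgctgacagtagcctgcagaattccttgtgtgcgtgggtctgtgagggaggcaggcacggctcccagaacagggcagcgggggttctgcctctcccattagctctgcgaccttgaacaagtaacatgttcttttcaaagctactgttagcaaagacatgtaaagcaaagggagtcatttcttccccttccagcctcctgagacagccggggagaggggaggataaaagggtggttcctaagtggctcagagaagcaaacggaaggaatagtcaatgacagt
Dmrt1 intronic peak: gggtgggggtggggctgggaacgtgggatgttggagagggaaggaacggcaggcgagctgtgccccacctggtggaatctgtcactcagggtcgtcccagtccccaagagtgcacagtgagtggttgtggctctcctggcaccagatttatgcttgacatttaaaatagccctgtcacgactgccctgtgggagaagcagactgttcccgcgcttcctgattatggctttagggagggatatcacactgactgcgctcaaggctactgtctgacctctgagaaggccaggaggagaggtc
Wt1 intronic peak: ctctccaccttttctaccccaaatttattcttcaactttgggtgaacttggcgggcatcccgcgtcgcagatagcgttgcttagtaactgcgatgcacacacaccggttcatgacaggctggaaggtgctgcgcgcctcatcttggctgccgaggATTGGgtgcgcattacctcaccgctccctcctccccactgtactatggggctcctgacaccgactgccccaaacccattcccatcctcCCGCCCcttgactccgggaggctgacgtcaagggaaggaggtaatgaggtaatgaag

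The letters searched on both strands were AACAAT (SOX), AACAAAG (SOX, second form), ACANTGT (part of a DMRT site), AGATAA (for GATA factors), AAGGTCA (NR5A1), TAATTA (homeodomain), the box CCAAT and the GC box GGGCGG, of which the first 3 can overlap each other. The *Sox8* window held GGGCGG at 104 and at 51 bases before the start, and 32.7% of 32851 promoter windows hold these letters. The *Lhx9* window held AACAAAG, read as CTTTGTT, beginning 117 bases before the start, and CCAAT, read as ATTGG, at 24 bases; 5.03% and 33.8% of promoter windows hold them. The *Wt1* stretch held CCAAT at base 156 and GGGCGG at base 244, letters found in 32.5% and 19.5% of 109183 peak middles of the same length. None of the letters was found in the *Sox9* or the *Dmrt1* stretch, where AACAAT is found in 11.5% and ACANTGT in 9.26% of peak middles.

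Of 9833 barcodes, 7198 nuclei were kept, with a median of 7948 RNA molecules (unique molecular identifiers, UMIs) and 4477 ATAC fragments. They were clustered on both assays without the 7 genes and without peaks within 1 Mb of their starts, so neither the RNA nor the nearby chromatin of these genes had a part in making the classes. Classes were named "-like" from fixed marker genes and were rebuilt here, which may set them apart from those of the study. The progenitor-like class, the main body of the interstitium, had 3283 nuclei and the germ-like class 974. Sertoli-like nuclei numbered 831, supporting-like nuclei 85, surface epithelium-like 563, Leydig-like 796 and mesonephric mesenchyme-like 391. The small classes were pericyte-like with 66, endothelial-like with 96, erythroid-like with 45 and immune-like with 68 nuclei. All 10 Sertoli markers were found in at least 5% of Sertoli-like nuclei, led by *Erbb4* at 4123 UMIs per 1000000 UMIs of the class (CPM) against 15.7 CPM in progenitor-like nuclei. *Amh*, whose product regresses the Müllerian duct, stood at 71.3 CPM against 34.7 CPM. All 10 also passed 5% in germ-like, endothelial-like and supporting-like nuclei, so detection alone does not set the class apart. Their summed level was 5705 CPM in Sertoli-like against 470, 815 and 1462 CPM in those 3 classes. The supporting-like name rests on *Pax8* (97.6% of its nuclei), *Aldh1a3* (50.6%) and *Cdh1* (18.8%). *Cdh1* was higher in germ-like nuclei, at 117 CPM and in 75.1% of them, and in erythroid-like nuclei, at 34.5 CPM, than the 25.7 CPM of supporting-like nuclei, and *Krt8*, *Krt18* and *Krt19* had between 0 and 2 UMIs there. The 5 duct epithelium markers summed to 36.7 CPM in supporting-like nuclei against 6.61 CPM in Sertoli-like and 26.1 CPM in germ-like nuclei, where *Ret* alone made 21.7 CPM. Of these markers *Gata3* stood at 15.6 CPM in supporting-like against 0.244 CPM in germ-like nuclei and was seen in 15.3% of supporting-like nuclei, and *Pax2* stood at 15.6 against 3.41 CPM and was seen in 3.53%.

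Several classes hold RNA of other classes, and this touches the levels below. After the 470 nuclei of highest doublet score had been removed, 4.90% of progenitor-like, 10.7% of surface epithelium-like, 14.9% of Sertoli-like, 18.8% of supporting-like, 19.2% of Leydig-like, 23.5% of germ-like, 29.4% of immune-like and 36.5% of endothelial-like nuclei were still over the automatic threshold of the doublet caller. Without them, the 9 progenitor markers summed to 185 in place of 663 CPM in Sertoli-like nuclei and to 151 in place of 743 CPM in germ-like nuclei. The 10 Sertoli markers fell from 470 to 80.1 CPM in germ-like nuclei. Levels without the nuclei over the threshold are therefore given second and called screened; this choice was made after the levels of the small classes were seen, and the doublet score itself reads RNA that includes the 7 genes. Not every sum fell so far. The 7 Leydig markers stood at 341 and, screened, 286 CPM in Sertoli-like nuclei, and at 394 and 403 CPM in progenitor-like nuclei. In supporting-like nuclei the 10 Sertoli markers stood at 1462 and, screened, 1070 CPM. Whether the *Sox9*, *Sox8* and *Dmrt1* RNA of supporting-like nuclei is their own was not tested.

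**Figure D1:**
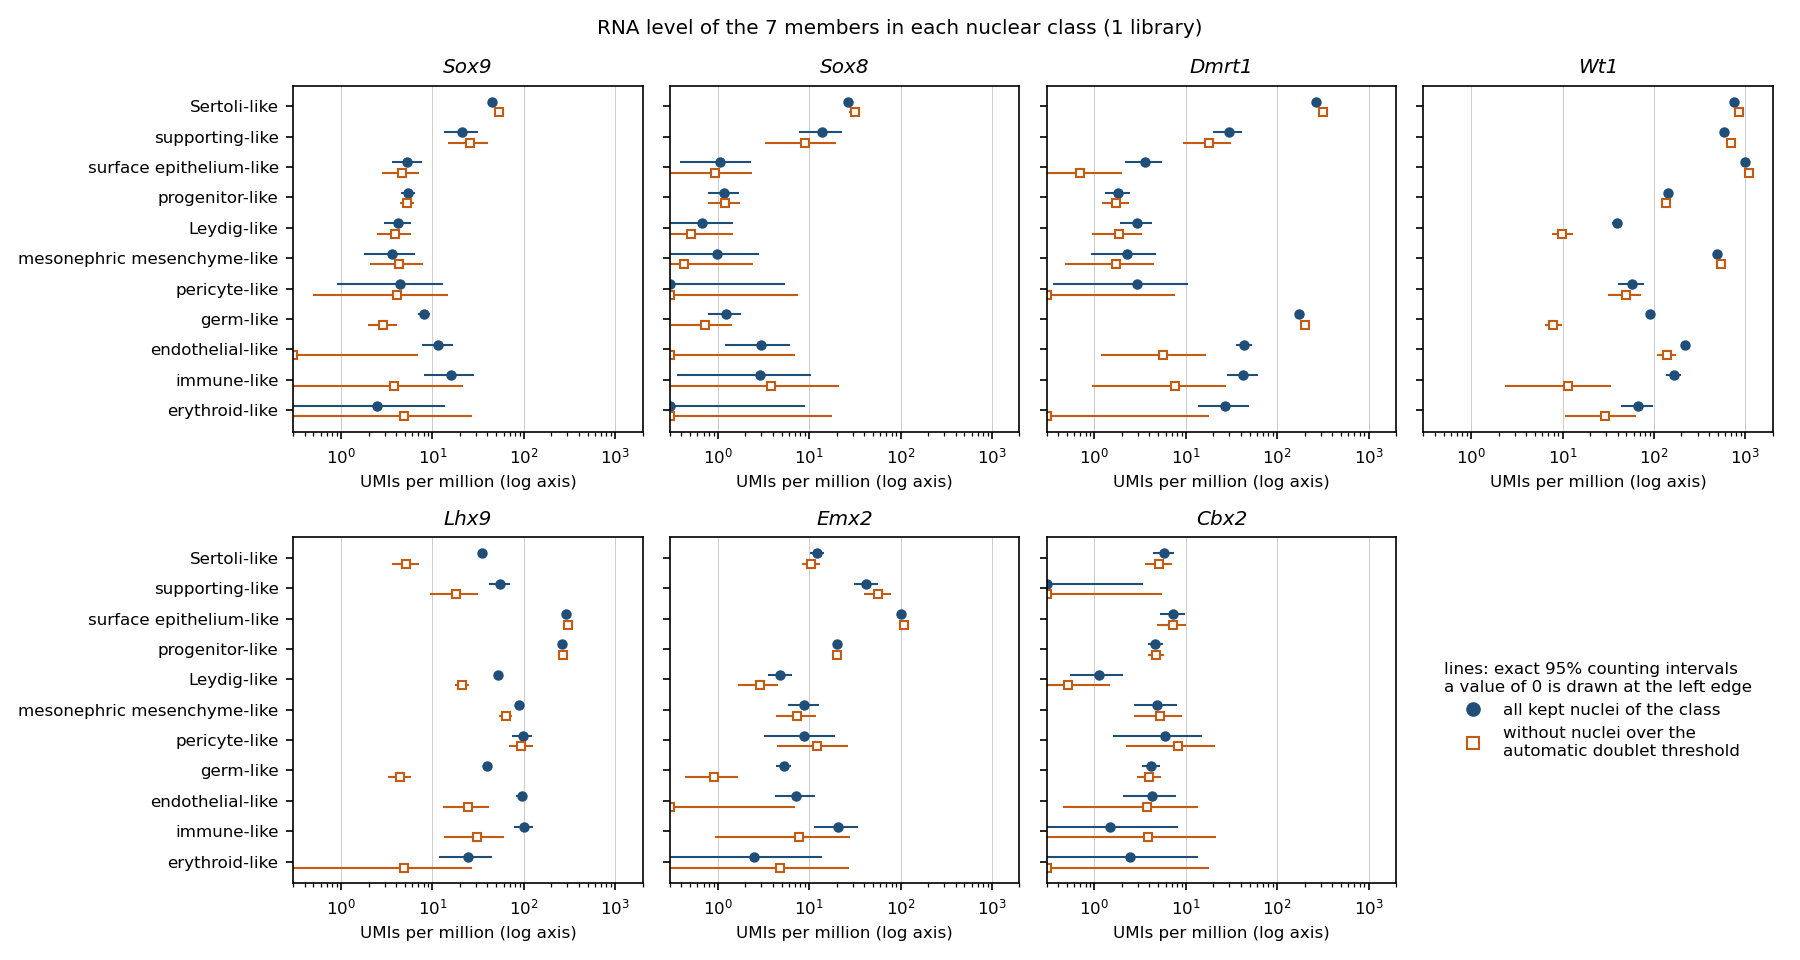
RNA level of each gene in 11 classes, in CPM on a log axis. Filled circles are all kept nuclei, open squares the screened nuclei, and lines exact 95% counting intervals. *Sox9*, *Sox8* and *Dmrt1* are highest in Sertoli-like nuclei, *Wt1*, *Lhx9* and *Emx2* in surface epithelium-like nuclei.

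*Sox9* (ENSMUSG00000000567; chr11:112782224-112787760, plus strand) was highest in Sertoli-like nuclei. Its 444 UMIs there made 45.1 CPM (41.0 to 49.5), or 52.9 CPM screened, and were 50.3% of the 883 *Sox9* UMIs in the data. Supporting-like nuclei were next with 21.1 CPM (13.4 to 31.6), or 25.5 CPM screened, an interval below that of Sertoli-like nuclei. The levels of 16.1 CPM in immune-like and 11.6 CPM in endothelial-like nuclei overlapped the supporting-like interval, but 72.7% of the immune-like UMIs came from 1 nucleus and the screened levels were 3.84 CPM and 0. Germ-like nuclei held 8.14 CPM (6.95 to 9.47), or 2.89 CPM screened. The 6 remaining classes lay between 2.47 and 5.39 CPM with intervals that overlap their neighbours, progenitor-like nuclei at 5.39 CPM and surface epithelium-like nuclei at 5.33 CPM among them.

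*Sox8* (ENSMUSG00000024176; chr17:25565892-25570686, minus strand) had its highest level in Sertoli-like nuclei, with supporting-like nuclei next. It stood at 26.9 CPM (23.8 to 30.4) in Sertoli-like nuclei, which held 74.2% of its 357 UMIs. The supporting-like level was 13.7 CPM (7.69 to 22.7), with 33.3% of its 15 UMIs in 1 nucleus, and 9.0 CPM screened. The other classes lay between 0 and 3.0 CPM, with 1.17 CPM in progenitor-like, 1.07 CPM in surface epithelium-like and 1.22 CPM in germ-like nuclei. Pericyte-like and erythroid-like nuclei had no *Sox8* UMI, which allows up to 4.41 and 7.40 CPM at 3 UMIs.

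*Dmrt1* (ENSMUSG00000024837; chr19:25505618-25604329, plus strand), a DM domain factor, was high in both cell types of the cords. Sertoli-like nuclei had 267 CPM (257 to 277), or 316 CPM screened, and germ-like nuclei 175 CPM (169 to 181), or 202 CPM screened. Before thinning, a *Dmrt1* UMI was seen in 83.0% of Sertoli-like and 83.7% of germ-like nuclei, although the median germ-like nucleus was deeper, at 15504.5 against 9824 UMIs. Endothelial-like (43.7 CPM), immune-like (42.4 CPM), supporting-like (29.3 CPM) and erythroid-like nuclei (27.1 CPM) followed, with overlapping intervals. Screened, they held 5.67, 7.68, 18.0 and 0 CPM. The interstitial classes and the epithelium were near the floor: progenitor-like nuclei had 1.80 CPM (1.30 to 2.42), and surface epithelium-like nuclei 3.56 CPM with 80.0% of the UMIs in 1 nucleus, or 0.693 CPM screened.

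*Wt1* (ENSMUSG00000016458; chr2:105126529-105173616, plus strand), a zinc finger factor, was highest in surface epithelium-like nuclei at 1001 CPM (975 to 1027). Sertoli-like nuclei followed at 761 CPM (743 to 778), supporting-like at 582 CPM (538 to 629) and mesonephric mesenchyme-like at 486 CPM (462 to 511). These 4 intervals did not overlap, and the order was the same in the screened nuclei (1109, 847, 698 and 542 CPM). Progenitor-like nuclei had 142 CPM (137 to 146). Germ-like nuclei had 90.5 CPM, which was 7.96 CPM screened, and Leydig-like nuclei 39.0 CPM, which was 9.99 CPM screened. A single germ-like nucleus carried 9.64% of the germ-like *Wt1* UMIs.

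*Lhx9* (ENSMUSG00000019230; chr1:138825186-138848577, minus strand), a LIM homeodomain factor, was low in the cords. It was highest in surface epithelium-like (289 CPM, 275 to 303) and progenitor-like nuclei (263 CPM, 257 to 270), whose intervals did not overlap. Immune-like, pericyte-like, endothelial-like and mesonephric mesenchyme-like nuclei lay together between 89.4 and 99.5 CPM. Of these, the pericyte-like level remained at 94.2 CPM when screened, whereas the mesonephric mesenchyme-like level dropped to 63.7, the immune-like level to 30.7 and the endothelial-like level to 24.6 CPM. Sertoli-like nuclei had 35.3 CPM (31.7 to 39.2), which was 5.12 CPM screened, so most of their 347 *Lhx9* UMIs lay in nuclei over the doublet threshold. Germ-like nuclei had 39.4 CPM, or 4.43 CPM screened, and Leydig-like nuclei 52.6 CPM, or 21.0 CPM screened.

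*Emx2* (ENSMUSG00000043969; chr19:59458372-59465357, plus strand), a homeobox gene, was likewise highest in surface epithelium-like nuclei, at 101 CPM (92.9 to 110). Supporting-like nuclei were next at 42.2 CPM (30.9 to 56.2), or 57 CPM screened. Progenitor-like nuclei had 20.4 CPM (18.6 to 22.3) and Sertoli-like nuclei 12.3 CPM (10.2 to 14.7), intervals that did not overlap. Immune-like nuclei stood at 20.5 CPM with 64.3% of the UMIs in 1 nucleus, and at 7.68 CPM screened. Germ-like nuclei fell from 5.31 to 0.904 CPM when screened.

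*Cbx2* (ENSMUSG00000025577; chr11:119022962-119031270, plus strand) was low everywhere, with 336 UMIs in all. Its level ran from 1.13 CPM in Leydig-like to 7.29 CPM (5.23 to 9.89) in surface epithelium-like nuclei, among classes with more than 1 UMI. Sertoli-like (5.79 CPM), progenitor-like (4.64 CPM) and germ-like nuclei (4.19 CPM) lay between, with overlapping intervals. Supporting-like nuclei had no *Cbx2* UMI, which allows up to 2.75 CPM at 3 UMIs. The ratio of the supporting-like to the Sertoli-like level was 0, with an interval from 0 to 0.603, or from 0 to 1.14 screened.

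The annotated spans of *Emx2* and the antisense RNA *Emx2os* overlap at their starts. The sources used here do not state whether counting used strand, so whether reads there were told apart is not known here. The span of *Wt1os* ends before *Wt1* begins. *Wt1os* stood at 660 CPM in surface epithelium-like, 361 CPM in mesonephric mesenchyme-like, 357 CPM in supporting-like, 322 CPM in Sertoli-like and 93.6 CPM in progenitor-like nuclei. *Emx2os* stood at 284 CPM in surface epithelium-like, 175 CPM in supporting-like, 67.8 CPM in progenitor-like and 32.0 CPM in Sertoli-like nuclei. Both were highest in the epithelium, as their sense partners were.

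Because the classes differ in depth, every nucleus was also thinned to 2000 UMIs, which left out 75 shallower nuclei, 54 of them progenitor-like. After thinning, a *Dmrt1* UMI was seen in 40.2% of Sertoli-like (36.9% to 43.6%) and 27.9% of germ-like nuclei (25.1% to 30.8%), against 1.54% of immune-like nuclei (0.0389% to 8.28%), taken as a background class with a median depth of 5676 UMIs. *Sox9* was seen in 9.54% of Sertoli-like nuclei (7.63% to 11.7%), against 34.8% before thinning, and in 1.54% of immune-like, 1.03% of germ-like and 0.991% of progenitor-like nuclei. The share of 3.53% of supporting-like nuclei (0.734% to 9.97%) overlapped that background. *Sox8* was seen in 5.31% of Sertoli-like nuclei (3.89% to 7.07%) and in no surface epithelium-like nucleus of 557, which allows a share of up to 0.660% of nuclei with a UMI at this depth and sets no limit on nuclei that express the gene.

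The genital ridge factors had broader shares. *Wt1* was seen in 81.7% of thinned surface epithelium-like (78.2% to 84.8%), 76.4% of Sertoli-like and 19.8% of progenitor-like nuclei, against 6.79% of germ-like and 3.08% of immune-like nuclei. *Lhx9* was seen in 40.6% of surface epithelium-like and 36.4% of progenitor-like nuclei, whose intervals overlap, and in 2.90% of Sertoli-like nuclei, at or below the germ-like (3.91%) and immune-like (3.08%) shares and so read as background. *Emx2* was seen in 19.7% of surface epithelium-like (16.5% to 23.3%) and 9.41% of supporting-like nuclei (4.15% to 17.7%). The immune-like interval, which rests on few nuclei, overlaps the supporting-like one. The germ-like share of *Emx2* lay between 0.404% and 0.817% over the processing alternatives. *Cbx2* shares were between 0 and 1.29% in all classes, too low to order.

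**Figure D2:**
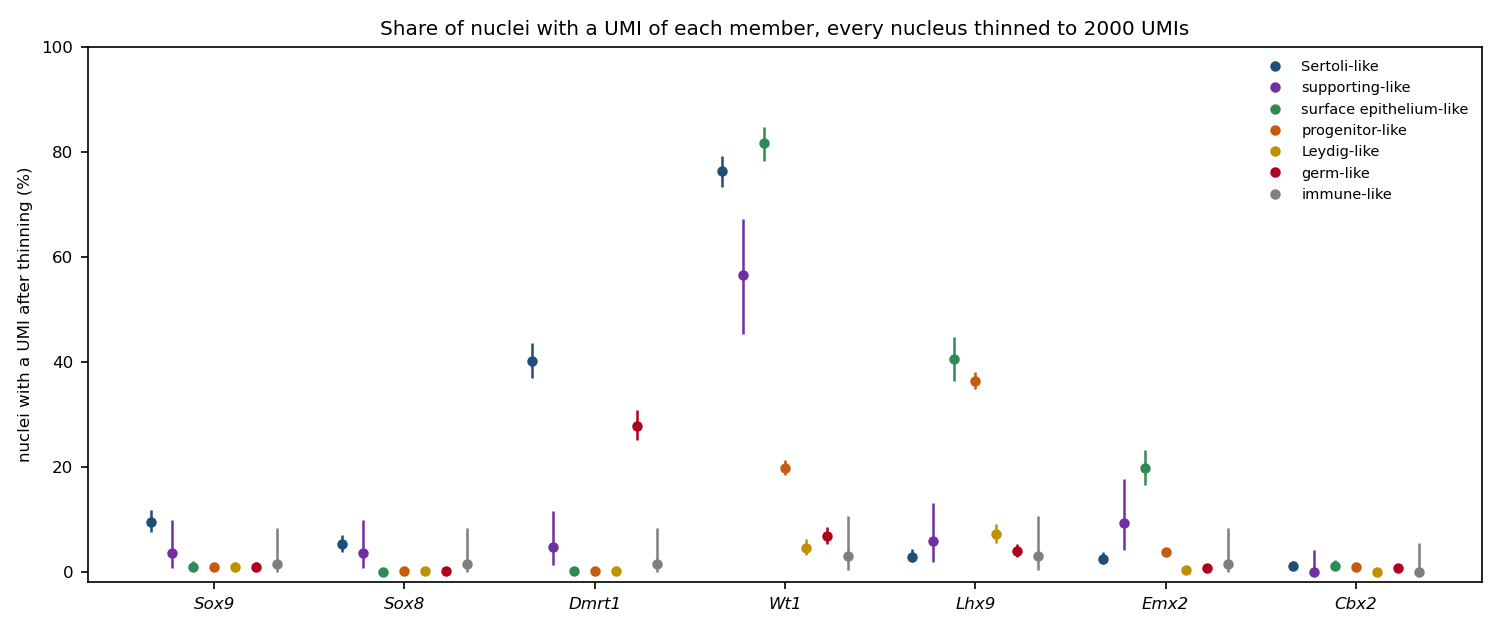
Share of nuclei with at least 1 UMI of each gene after every nucleus was thinned to 2000 UMIs, in 7 classes. Points are shares in percent and lines exact 95% binomial intervals. *Wt1* reaches 81.7% in surface epithelium-like nuclei, *Dmrt1* stands out in Sertoli-like and germ-like nuclei, and *Cbx2* stays at or below 1.29% in every class.

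Whether factors were seen together in the same nucleus was counted at this fixed depth. In 828 Sertoli-like nuclei, 4 had both *Sox9* and *Sox8* UMIs, 0.483% (0.132% to 1.23%) against 0.507% for the product of the separate shares. *Sox9* and *Dmrt1* were seen together in 27 of them, 3.26% (2.16% to 4.71%) against 3.84%. In 557 surface epithelium-like nuclei, *Wt1* and *Lhx9* were seen together in 188, 33.8% against 33.1%, and *Wt1* and *Emx2* in 87, 15.6% against 16.1%. All 4 intervals included the product.

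The next comparison asked which of the factors set Sertoli-like nuclei apart from the interstitial progenitor-like nuclei. *Dmrt1*, *Sox8*, *Sox9* and *Wt1* were higher in Sertoli-like nuclei and *Lhx9* was lower. *Dmrt1* was 149-fold higher (110 to 206), *Sox8* 23.0-fold (15.6 to 35.3), *Sox9* 8.37-fold (6.86 to 10.3) and *Wt1* 5.37-fold higher (5.16 to 5.59). *Lhx9* was 7.46-fold lower, and 51.9-fold lower in screened nuclei. *Emx2* had a ratio of 0.603 (0.490 to 0.737) and *Cbx2* of 1.25 (0.891 to 1.73), both within 2-fold. With clusters from chromatin alone, *Dmrt1* was 32.9-fold and *Sox8* 13.2-fold higher, and without doublet removal *Sox8* was 15.1-fold higher. Against the 1463 progenitor-like nuclei of the largest cluster at the finer resolution described below, *Wt1* was 11.4-fold and *Sox8* 14.4-fold higher, and the *Emx2* ratio turned to 1.44 (1.08 to 1.94). Thus, against the whole class, 4 of 7 genes were at least 2-fold higher and 1 at least 2-fold lower, where 15.4% of 15991 genes with at least 20 UMIs over both classes were higher by this rule and 15% lower.

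Surface epithelium-like nuclei were set apart from progenitor-like nuclei by *Wt1* and *Emx2*. *Wt1* was 7.07-fold (6.77 to 7.38) and *Emx2* 4.95-fold higher (4.38 to 5.6), with no gene of the 7 lower. Against the largest progenitor-like cluster they were 15.1-fold and 11.9-fold higher. *Lhx9* differed by a ratio of 1.10 (1.04 to 1.16), *Cbx2* by 1.57 (1.07 to 2.27), *Sox9* by 0.989 and *Sox8* by 0.911. *Dmrt1* had a ratio of 1.98 (1.10 to 3.44) that turned to 0.403 (0.0795 to 1.27) in screened nuclei, on 3 UMIs, and was 2.45 (1.17 to 5.23) against the largest progenitor-like cluster. Over all genes 9.19% were at least 2-fold higher and 8.86% lower.

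Supporting-like nuclei share *Wt1* with Sertoli-like nuclei but differed in the Sertoli factors. *Emx2* was 3.43-fold higher (2.39 to 4.85) than in Sertoli-like nuclei, whereas *Dmrt1* was 9.11-fold lower and *Sox9* 2.14-fold lower, with ratios of 0.110 (0.0750 to 0.155) and 0.467 (0.293 to 0.710). Screened, the ratio was 5.42 (3.57 to 8.12) for *Emx2*, 0.0569 (0.0294 to 0.0997) for *Dmrt1* and 0.482 (0.278 to 0.783) for *Sox9*. *Cbx2* was the third gene counted as lower, from 0 against 57 UMIs. Screened, *Cbx2* had 0 against 36 UMIs, and the interval of its ratio, 0 to 1.14, included 1. *Sox8* had a ratio of 0.510 (0.282 to 0.857), just inside 2-fold, and 0.285 screened. *Wt1* had a ratio of 0.765 (0.705 to 0.830). *Lhx9* moved from 1.56 (1.16 to 2.06) to 3.52 (1.67 to 6.92) when screened, where the Sertoli-like level dropped from 35.3 to 5.12 CPM and the supporting-like level from 54.99 to 18.0 CPM, on 12 UMIs. These are 1 gene higher and 3 lower of 7, against 11.1% and 15.2% of all genes, and they rest on 85 nuclei.

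In germ-like nuclei *Dmrt1* was the gene of the 7 at least 2-fold above the progenitor-like level, at 97.2-fold (72.0 to 135), or 23.6-fold with clusters from chromatin alone. *Lhx9* was 6.69-fold and *Emx2* 3.84-fold lower, and 59.9-fold and 22.1-fold lower in screened nuclei. *Wt1* had a ratio of 0.639 (0.604 to 0.677) that became 0.0588 (0.0470 to 0.0727) when screened, and *Sox9* one of 1.51 (1.19 to 1.91) that became 0.546 (0.357 to 0.814). Against the largest progenitor-like cluster *Emx2* was within 2-fold at 0.624 (0.464 to 0.841), and *Wt1* had a ratio of 1.36 (1.24 to 1.49). *Cbx2* (0.903) and *Sox8* (1.04) were within 2-fold. Of all genes 27.6% were at least 2-fold higher and 16.1% lower, and the median gene was 1.21-fold higher in germ-like nuclei, 0.27 on the log2 scale, so these ratios are to be read against that shift.

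Leydig-like nuclei held less of the genital ridge factors than the progenitor-like class as a whole. *Lhx9* was 5.01-fold, *Emx2* 4.2-fold, *Cbx2* 4.10-fold and *Wt1* 3.63-fold lower, and none of the 7 genes was at least 2-fold higher. *Cbx2* rests on 10 UMIs here, with a ratio of 0.244 (0.114 to 0.465). Against the largest progenitor-like cluster, *Wt1* at 0.587 (0.513 to 0.670) and *Emx2* at 0.571 (0.385 to 0.835) were within 2-fold, *Lhx9* remained 4.36-fold lower, and *Dmrt1* at 2.02 and *Sox8* at 0.363 were past 2-fold on 26 and 6 Leydig-like UMIs. Screened, *Wt1* was 13.5-fold, *Lhx9* 12.6-fold, *Emx2* 6.95-fold and *Cbx2* 9.24-fold lower, *Cbx2* on 3 Leydig-like UMIs. In all kept nuclei against the whole class, *Sox9* (0.776), *Sox8* (0.580) and *Dmrt1* (1.64) were within 2-fold. The *Sox8* ratio was 0.420 (0.0814 to 1.37) screened, on 3 Leydig-like UMIs. The share of all genes was 16.4% lower and 13.1% higher.

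**Figure D3:**
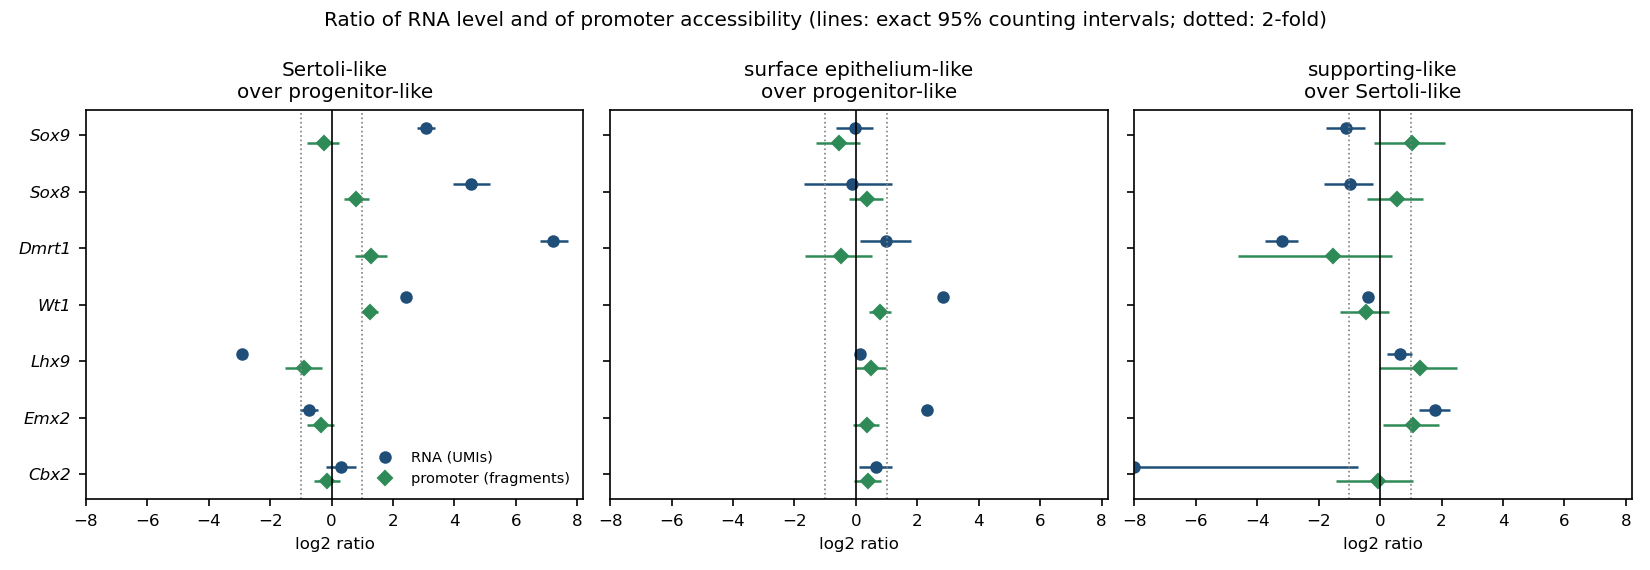
Log2 ratio of the RNA level (circles, UMIs) and of promoter accessibility (diamonds, fragments) for each gene in 3 comparisons of classes, with exact 95% counting intervals as lines and dotted lines at 2-fold. The *Cbx2* ratio of 0 is drawn at the left edge. RNA ratios reach 149-fold, whereas promoter ratios stay between 0.342 and 2.48.

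Promoter accessibility was counted as fragments per 1000000 fragments of the class at peaks (FPM). The peaks counted ran from 1 kb before the first to 1 kb after the last annotated start of a gene. Where these starts lie far apart, the shares of all promoters given below take in peaks between them. At *Dmrt1*, Sertoli-like nuclei had 31.5 FPM (23.3 to 41.7) and germ-like nuclei 39.4 (32.0 to 48.0), against 12.9 (10.3 to 15.9) in progenitor-like nuclei. The same 2 classes had the most *Dmrt1* RNA. At *Wt1*, Sertoli-like nuclei were highest with 118 FPM (102 to 137). Pericyte-like nuclei had 104 (59.5 to 169), an overlapping interval, with a low RNA level of 57.4 CPM. Surface epithelium-like nuclei had 86.6 (69.1 to 107) and progenitor-like nuclei 49.98 (44.7 to 55.7).

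Against progenitor-like nuclei, the Sertoli-like promoter ratio was 2.45 (1.69 to 3.52) at *Dmrt1* and 2.37 (1.97 to 2.85) at *Wt1*. It was 1.75 (1.32 to 2.30) at *Sox8*, counted over the whole promoter peak (chr17:25570433-25571281, 849 bases) of which the printed window is a part, and 0.836 (0.571 to 1.19) at *Sox9*, whose RNA was 8.37-fold higher. At *Lhx9* it was 0.541 (0.348 to 0.810), or 0.378 screened, and at *Emx2* and *Cbx2* 0.785 and 0.909. So 2 of 7 promoters were at least 2-fold higher and none lower, against 5.81% and 6.63% of 18301 promoters. No promoter of the 7 passed 2-fold in surface epithelium-like nuclei, where 4.21% of all were higher and 4.47% lower. The ratio was 1.73 (1.35 to 2.21) at *Wt1*, 1.41 (0.997 to 1.96) at *Lhx9* and between 0.688 and 1.31 at the others.

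Between supporting-like and Sertoli-like nuclei, the promoters of *Lhx9* (2.48, 0.974 to 5.62), *Emx2* (2.09, 1.08 to 3.81) and *Sox9* (2.04, 0.865 to 4.30) were past 2-fold and that of *Dmrt1* was at 0.342 (0.0403 to 1.30) on 2 fragments. The share of all promoters was 4.37% higher and 11.9% lower. Of the 4 intervals, that of *Emx2* alone excluded 1, so at this depth the other 3 differences were not detectable. Screened, the *Emx2* promoter ratio was 2.32 (0.929 to 5.11) on 8 and 34 fragments, an interval that included 1 as well. The *Sox9* promoter stood at 48.5 FPM (22.2 to 92.1) in supporting-like nuclei, on 9 fragments, and the *Sox9* RNA was lower there.

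Within the gene spans and 10 kb before their starts lay 34 peaks, of which 24 had at least 50 fragments over Sertoli-like and progenitor-like nuclei and 21 over surface epithelium-like and progenitor-like nuclei. Among these, 4 peaks differed at least 3-fold from progenitor-like nuclei. Of the 41369 peaks in the data with this minimum in the first comparison, 4.13% were at least 3-fold higher and 15.4% lower in Sertoli-like nuclei, and of 38330 in the second, 1.52% were higher and 9.98% lower in surface epithelium-like nuclei. Centred 9084 bases before *Sox9* (chr11:112772685-112773595), a peak had 27.7 FPM in Sertoli-like, 21.6 in supporting-like and 7.27 in progenitor-like nuclei. Supporting-like nuclei had 185530 fragments at peaks in all, so their value here rests on few fragments and has no interval. The Sertoli-like ratio was 3.81 (2.46 to 5.87), while the peak at the *Sox9* start had a ratio of 0.836. Centred 31697 bases into *Dmrt1* (chr19:25536892-25537738), a peak had 25.1 FPM in Sertoli-like against 5.45 in progenitor-like nuclei, a ratio of 4.60 (2.85 to 7.45), and 6.43 in germ-like nuclei. It was not particular to Sertoli-like nuclei. Leydig-like nuclei, with 2.94 CPM of *Dmrt1* RNA, had 16.2 FPM there and supporting-like nuclei 10.8, both without an interval.

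Another 5 peaks were past 3-fold in Sertoli-like nuclei but missed the minimum of fragments, and they are named after their values were seen. The shares of all peaks given above are for peaks with at least 50 fragments, so no background stands beside this count. *Dmrt1* had 4 of them. They lay 8116 bases before the start (19.3 against 1.06 FPM), 8538 bases into the gene (10.3 against 3.33), 9632 bases into the gene (25.7 against 1.21) and 23924 bases into it (15.4 against 2.42). Supporting-like nuclei had 21.6, 0, 0 and 10.8 FPM at these 4 peaks in the same order, on few fragments and without intervals. Germ-like nuclei had 2.41, 3.62, 6.43 and 2.81 FPM at them, but 28.5 FPM at the start of *Dmrt1*, where Sertoli-like nuclei had 21.2. The fifth lay 17094 bases into *Lhx9*, with 10.9 FPM in Sertoli-like against 3.03 in progenitor-like nuclei, a ratio of 3.61 (1.78 to 7.26) on 17 and 20 fragments, although *Lhx9* RNA was lower in Sertoli-like nuclei. Leydig-like nuclei had 10.5 FPM at this peak, near the Sertoli-like value.

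The *Wt1* peak in the intron centred 7936 bases from the start (chr2:105134033-105134896) was an epithelial one. Surface epithelium-like nuclei had 40.2 FPM, supporting-like 26.9, Sertoli-like 13.5 and progenitor-like 7.57, and the epithelial ratio was 5.31 (3.40 to 8.24) and the Sertoli-like ratio 1.78. The supporting-like value again rests on few fragments and has no interval. The next peak towards the start, at 4124 bases, had the other order, with 51.5 FPM in Sertoli-like, 17.5 in surface epithelium-like and 18.5 in progenitor-like nuclei. At *Lhx9* the peak 6054 bases into the gene (chr1:138842090-138842955), which holds a later annotated start and the window with CTTTGTT, had 4.50 FPM in Sertoli-like against 19.5 in progenitor-like nuclei. The ratio was 0.231 (0.0909 to 0.489), and surface epithelium-like nuclei had 16.5 FPM. At the start of the longest *Lhx9* transcript the Sertoli-like ratio was 1.06.

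**Figure D4:**
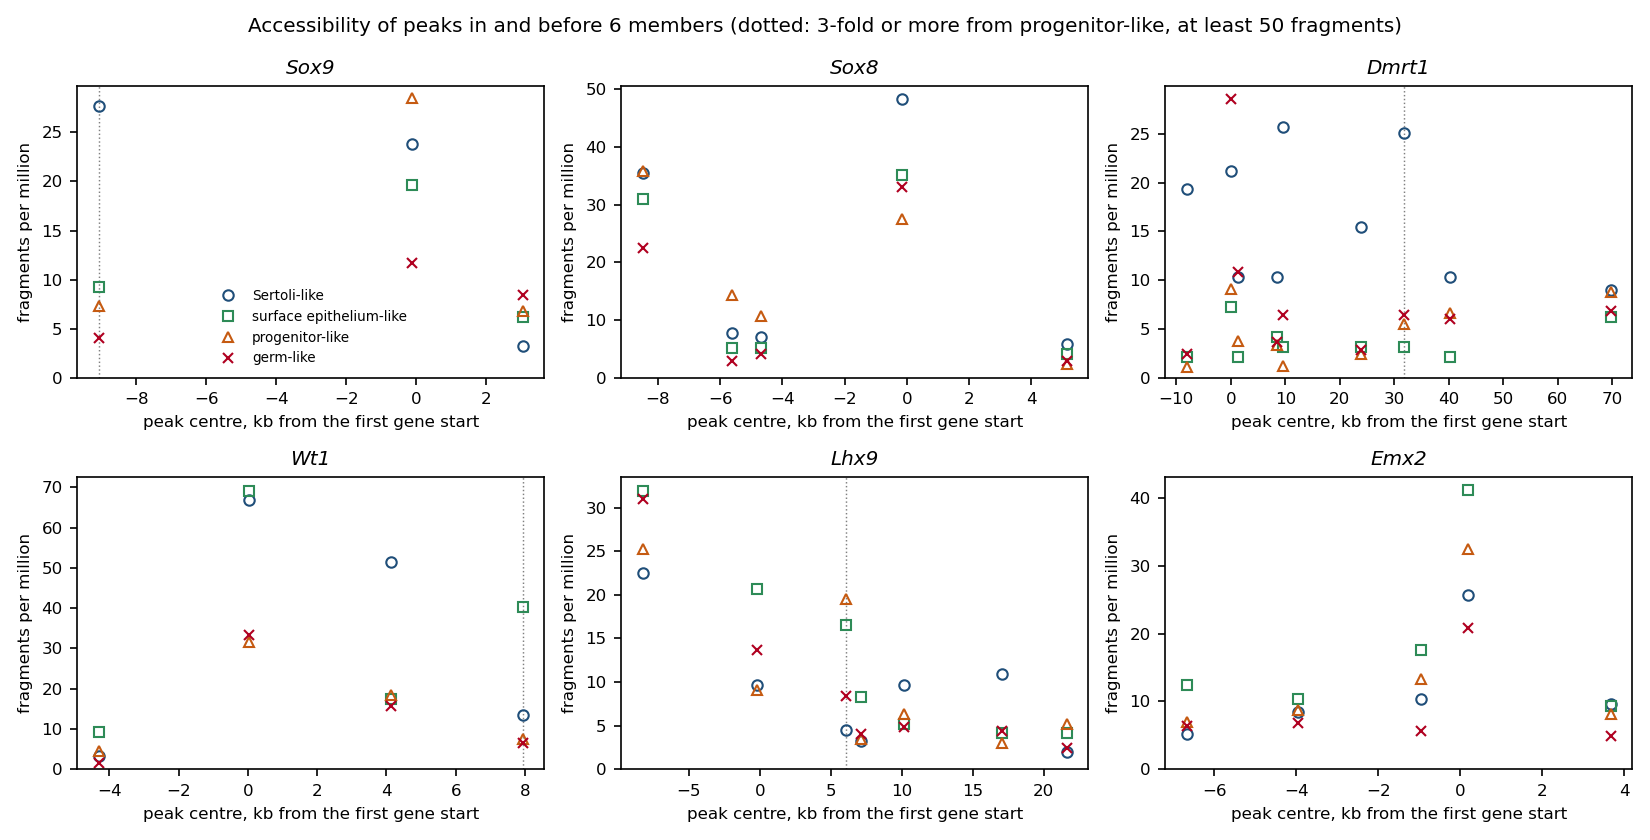
FPM at each peak within and before 6 of the genes, by the distance of the peak centre in kb from the first gene start, for 4 classes. Dotted lines mark the 4 peaks that differed at least 3-fold from progenitor-like nuclei with at least 50 fragments. The Sertoli-like points stand above the others at the peak 9084 bases before *Sox9* and at several peaks of *Dmrt1*, and below them at the peak 6054 bases into *Lhx9*.

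Each class can hold unlike nuclei, and clusters cut at a finer resolution of 0.6 were compared for the members. Nearly all progenitor-like nuclei fell into 3 clusters, one of 1049 nuclei named contractile-like. Of the 1541 nuclei of the largest, 78 had been Leydig-like at the coarser resolution, whereas the other two held progenitor-like nuclei alone. *Wt1* stood at 231 CPM in the contractile-like cluster, against 64.9 CPM in the largest cluster and 158 CPM in the cluster of 760 cycling nuclei. *Lhx9* stood at 339, 221 and 244 CPM and *Emx2* at 32.3, 8.14 and 25.4 CPM in the same order. The progenitor-like levels of *Wt1* and *Emx2* given above are therefore averages over clusters that differ over 3-fold.

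Sertoli-like nuclei split into a cluster of 580 and a cycling cluster of 253, of which 2 had been Leydig-like, and in the cycling cluster the proliferation gene *Mki67* reached 369 against 69.8 CPM. *Dmrt1* stood at 309 CPM in the first and 211 CPM in the cycling cluster, *Wt1* at 838 and 654 CPM, and *Sox9* at 53.4 and 34.4 CPM. *Lhx9* went the other way, with 14.2 and 61.9 CPM, and 31.2% of the cycling nuclei were over the doublet threshold against 8.10%. Screened, the levels were nearer, at 333 and 281 CPM for *Dmrt1*, 868 and 805 CPM for *Wt1* and 4.43 and 6.54 CPM for *Lhx9*. The larger epithelial cluster of 475 nuclei had 1044 CPM of *Wt1*, 330 CPM of *Lhx9* and 109 CPM of *Emx2*, and the smaller of 88 nuclei 766, 60.2 and 56.7 CPM. Germ-like clusters of 554 and 344 nuclei had 185 and 189 CPM of *Dmrt1*. A germ-like cluster of 76 nuclei, all over the threshold, had 137 CPM of *Dmrt1* and 270 CPM of *Wt1*.

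**Figure D5:**
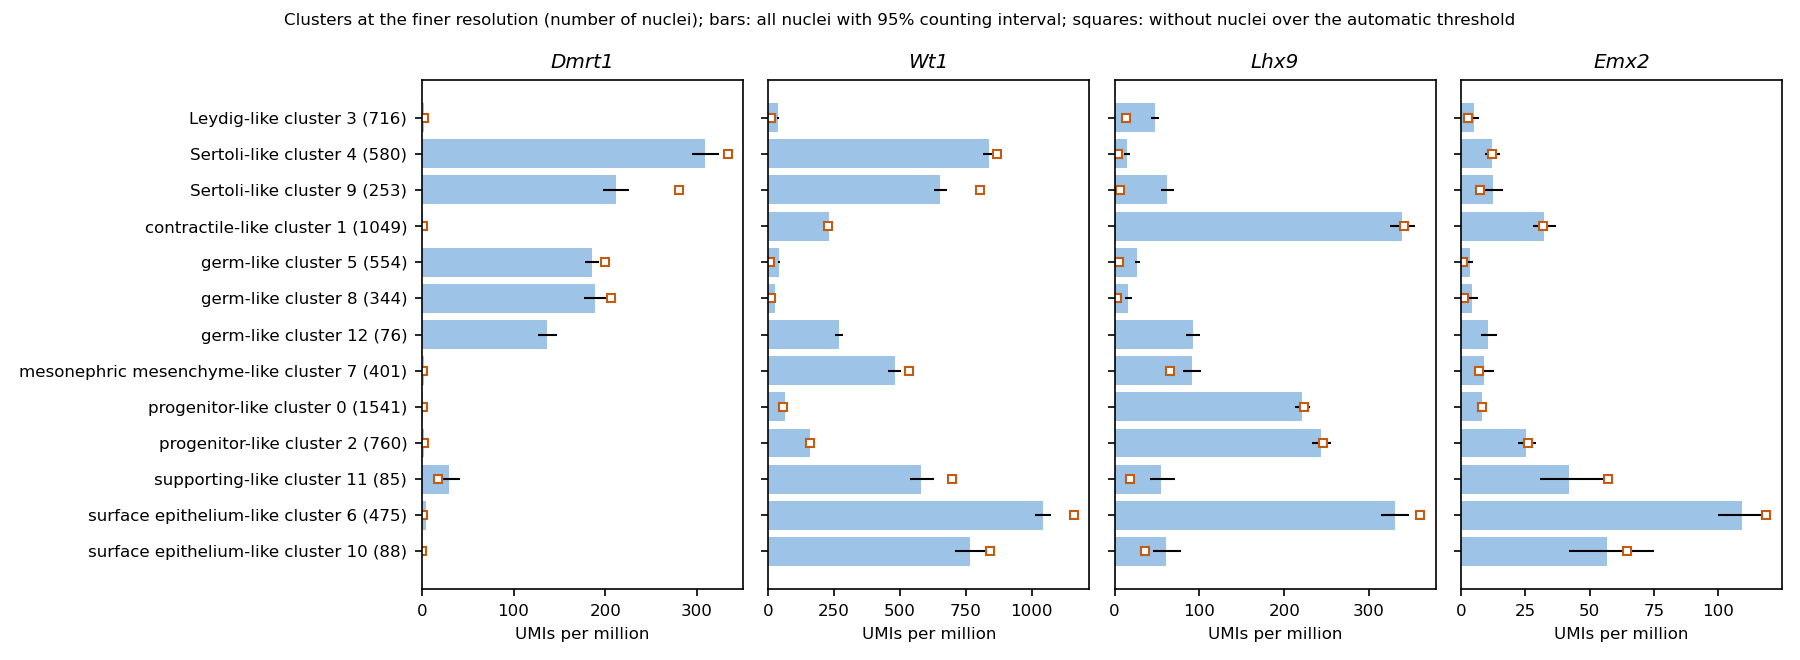
RNA level of *Dmrt1*, *Wt1*, *Lhx9* and *Emx2* in clusters at the finer resolution, in CPM, with the number of nuclei in brackets. Bars are all nuclei with exact 95% counting intervals and open squares screened nuclei. *Lhx9* and *Emx2* are lower in the smaller than in the larger epithelial cluster, and *Wt1* differs between the clusters of the progenitor-like class.

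Other genes of the pathways were read from fixed lists kept out of the clustering features. Of 10 gonad-forming factors, 8 had 20 UMIs in Sertoli-like and progenitor-like nuclei, and 3 were at least 2-fold higher and 3 lower, with a median ratio of 0.875 against 1.07 over all genes, of which 15.4% were higher and 15% lower. Past 3-fold were *Nr5a1*, the steroidogenic factor (3.38, 3.07 to 3.71), and on the lower side the mesenchymal factors *Tcf21* (0.152) and *Osr1* (0.136). Of 6 partners in the testis pathway, 5 were measured and 3 were higher: *Fgf9*, which feeds back on *Sox9* (23.1, 15.8 to 35.2), the third SOXE gene *Sox10* (15.4 CPM in Sertoli-like nuclei, a ratio of 122 with an interval of 41.1 to 600 on 3 progenitor-like UMIs) and *Gadd45g* (3.24). *Sox10* met the minimum of 20 UMIs only through its 151 Sertoli-like UMIs, so its place among the higher genes followed from passing that minimum. *Sry* had no UMI in either class, which allows up to 0.305 CPM in Sertoli-like nuclei.

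Of 9 genes of the ovarian side, 6 were measured in Sertoli-like and progenitor-like nuclei, 4 lower and 1 higher, against 15% and 15.4% of all genes, with a median ratio of 0.394. *Wnt4* (0.184) and *Lef1* (0.198), of WNT signalling, were lower past 3-fold and *Runx1* was higher (3.83, 2.74 to 5.40). Of 14 Polycomb genes all were measured, none was higher and 2 were lower, *Phc2* past 3-fold at 0.260, with a median of 1.07, close to that of all genes. Of 6 relatives of the members, 3 were measured and 2 were higher, *Dmrta1* (4.73, 2.65 to 8.72) and *Dmrt3*, whose 5.59 CPM in Sertoli-like nuclei stood against 1 UMI in progenitor-like nuclei, a ratio of 134 (23.0 to 5377).

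In surface epithelium-like over progenitor-like nuclei, 1 of 8 measured gonad-forming factors was higher, *Gata6* (6.32, 5.86 to 6.82), and 1 lower, and 1 of 4 testis partners was higher, *Fgf9* (117, 80.8 to 176). Of 6 measured ovarian-side genes 3 were higher, the WNT activator *Rspo1* (13.6), the activin antagonist *Fst* (12.8) and *Runx1* (10.5), and 1 was lower. Polycomb genes had 0 higher and 1 lower of 14, and 2 measured relatives were within 2-fold. The medians of these 5 lists were 1.11, 0.998, 5.98, 1.09 and 1.32, against 0.983 over all genes, of which 9.19% were higher and 8.86% lower.

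The genes whose levels over the 10 classes of at least 50 nuclei ran most like each member were ranked by Pearson's r of log2(CPM + 5). The points share 1 library and differ in depth and doublet share, so r is a description. *Sox9* was followed most closely by *Cdh23* (0.979), *Sox8* by *Trim7* (0.978), *Dmrt1* by *Ralgapa2* (0.975), *Wt1* by *Wt1os* (0.990), *Lhx9* by *Gm20631* (0.970), *Emx2* by *Emx2os* (0.962) and *Cbx2* by *Rad51ap1* (0.916). The next in order were *Fam184b* and *Gm35533* for *Sox9*, *Gstm2* and *Gcc2* for *Sox8*, *Asxl1* and *Smg6* for *Dmrt1*, *Pygb* and *Disp1* for *Wt1*, *Hmcn1* and *Hgf* for *Lhx9*, *E330013P04Rik* and *Stk26* for *Emx2*, and *Dtl* and *Chaf1b* for *Cbx2*. With 1 added to the CPM in place of 5, *Gm35533* came first for *Sox9* (0.973) before *Cdh23* (0.971) and *Tmem184a*, the other first genes were unchanged, and *Dst* took the place of *Smg6* for *Dmrt1*, *Magi2* that of *Stk26* for *Emx2*, and *Rfc4* and *Tipin* those of *Dtl* and *Chaf1b* for *Cbx2*. Among the members themselves r was 0.94 for *Sox9* with *Sox8*, 0.80 for *Sox9* with *Dmrt1*, 0.66 for *Wt1* with *Emx2* and -0.66 for *Dmrt1* with *Lhx9*.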

How the data were processed

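Nuclei of E14.5 testes were profiled by 10x multiome. Per the submitters' processing notes and the study's methods, the authors ran Cell Ranger ARC 2.0.1 on mm10 (GRCm38) at default settings. The deposited matrix holds raw counts, with UMIs for genes and transposase cuts for peaks, and the deposited fragment list gives unique fragments with a count of supporting read pairs (1.09 per fragment). No value was normalized by the authors, and peaks were called over all nuclei together.

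Nuclei were kept at the study's thresholds: more than 500 genes, between 250 and 25000 fragments at peaks that made up more than 20% of all fragments, and less than 10% mitochondrial, 10% ribosomal and 0.5% haemoglobin UMIs. The study's further limit of 5% of fragments in blacklist regions was not applied. Of 7668 passing nuclei, the 470 (6.13%) of highest Scrublet score (scanpy 1.11.5) were removed by rank. Free RNA was not removed. Clusters came from Seurat 5.3.0 (R 4.3.3) weighted nearest neighbours over 30 components per assay and 2000 variable genes, at a resolution of 0.3, without 54 genes (members and lists) and 889 peaks. Each of 13 classes was named from fixed markers, and a class needed 3 markers each found in 5% of a cluster's nuclei, a rule set after the *Pax8* cluster was seen.

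The sum of UMIs or fragments in a class was scaled to 1000000, with exact Poisson intervals for levels, exact conditional binomial intervals for ratios and exact Clopper-Pearson intervals for shares, all 95%. Fragments, not cuts, were counted at peaks. A gene was called past 2-fold with 20 counts over both classes. The code for ratios and calls was run on simulated counts of known fold, which checks the code and lends no support to the values above. Named were all members, list genes past 3-fold with 20 UMIs, the 3 genes most like each member (at least 500 UMIs), and locus peaks past 3-fold with 50 fragments. Members and lists were chosen with earlier results of these data known. Gene positions, transcripts around printed sequences and their names are from GENCODE M21, and promoter windows from RefSeq on GRCm38.p6.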

Additional observations from a re-analysis of the deposited data

How the results depend on the processing

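Counts of genes past 2-fold were recomputed under other choices of nuclei, clusters, features, minimum counts, fold, background and promoter window; 215 recomputed counts stayed within 1.5 times the main count and 41 did not, and the cause was not tested except where stated. Subtracting the immune-like level gave 0 genes for Sertoli-like over progenitor-like (higher and lower), surface epithelium-like (higher), supporting-like over Sertoli-like (higher), germ-like (higher and lower) and Leydig-like (lower), since the immune-like level was above that of at least 1 class of each such comparison and left no ratio. A call at 1.5-fold gave 2 lower in Sertoli-like, 4 higher in epithelium-like, 2 higher in supporting-like, 2 higher in germ-like and 1 higher in Leydig-like RNA, and 1 lower Sertoli-like and 1 higher epithelium-like promoter. With the automatic doublet threshold and new clusters, epithelium-like RNA had 1 lower, supporting-like RNA 2 higher and germ-like RNA 4 lower, and promoters had 1 lower in Sertoli-like, 1 lower in epithelium-like and 1 higher in supporting-like nuclei. The same clusters without nuclei over that threshold, an alternative added after seeing the data, gave 1 lower in epithelium-like and 2 higher in supporting-like RNA, and 1 lower Sertoli-like, 1 lower epithelium-like and 1 higher supporting-like promoter. Taking the largest progenitor-like cluster in place of the class, also added after seeing the data, gave 1 lower in germ-like and 1 higher in Leydig-like RNA. Clusters from chromatin alone gave 4 lower in germ-like RNA. Without doublet removal there was 1 higher in Leydig-like RNA, and 1 higher and 0 lower supporting-like promoters. With the members and nearby peaks left in the features there was 1 higher in Leydig-like RNA and 1 lower epithelium-like promoter. Promoters past 3-fold were 0 higher in Sertoli-like and 0 higher and 0 lower in supporting-like nuclei; a minimum of 100 counts left 0 and 0 in supporting-like nuclei. Peaks within 500 bp gave 1 lower in Sertoli-like and 0 lower in supporting-like nuclei, and scaling to fragments anywhere 1 lower in Sertoli-like nuclei.

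Over the alternatives with a value, the Sertoli-like over progenitor-like ratio lay between 6.58 and 9.98 for *Sox9*, 13.2 and 26.1 for *Sox8*, 32.9 and 184 for *Dmrt1*, 5.02 and 11.4 for *Wt1* and 0.0177 and 0.207 for *Lhx9*. The surface epithelium-like ratio lay between 4.90 and 11.9 for *Emx2* and between 0.298 and 2.5 for *Dmrt1*, and the germ-like ratio between 23.6 and 121 for *Dmrt1*. The comparison of supporting-like with Sertoli-like nuclei was not run with clusters from RNA alone or from chromatin alone, where no cluster took the supporting-like name (a cluster of 81 nuclei from RNA alone, led by *Rmst* and *Pax8* like the supporting-like cluster, scored highest for the duct epithelium markers and stayed unnamed). Depth limits *Cbx2*, *Sox8* outside Sertoli-like nuclei and all supporting-like promoters. No paired analysis was possible because each assay has 1 library.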
